A study of Rattus norvegicus with 48 samples.

Results

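The miR-30 family and its relative miR-384 were followed through 48 small RNA libraries of rat brain. The members were taken by name from the deposited table: miR-384-5p and the 5p arms of miR-30a, miR-30b, miR-30c, miR-30d and miR-30e. Of these 6 names, 5 were measured in all 48 libraries, out of 612 mature names in the table, and miR-30b-5p was not analysed here. The table held 1063 names in all, of which 451 were hairpin precursors. The rule was by name and uses no measured value, although earlier results of these data were known when it was set.

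The study asked whether a change of social housing alters microRNA levels in adolescent rats whose dams had been injected with ethanol. All animals were Long Evans rats taken at postnatal day 42, of both genders, and RNA from 3 animals was pooled for each library. The control groups came from dams given saline and the ethanol-exposed groups from dams given ethanol. Non-enriched rats lived with littermates, whereas enriched rats lived with unfamiliar rats of the same age and sex born to an untreated dam. Amygdala and ventral striatum were dissected from the same animals, which gave 4 treatment groups of 6 libraries (3 per gender) in each of 2 regions. All groups had passed through the social interaction test and ketamine and xylazine anaesthesia, so none was an untested baseline. Comparisons are named by region (A, amygdala, or V, ventral striatum), then by the fixed condition, then by the contrast: A N(EvC) is ethanol against control in the non-enriched amygdala, S is enriched, and A E(SvN) is enriched against non-enriched in the ethanol-exposed amygdala. Nothing in the labels ties the pools to separate litters, so p-values measure only the spread between pools.

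MicroRNAs guide Argonaute proteins to messenger RNAs, mostly by pairing of the seed, bases 2 to 8 of the mature strand, with the target. Members that share a seed can pair with overlapping sets of targets, so the summed level of such a family is often considered beside the level of each member. The miR-30 family is widely expressed and abundant in brain. miR-384 is a brain-enriched microRNA of the X chromosome, and miR-384-5p is known for a role in the maintenance of long-term potentiation.

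The mature sequences are shown because the seed, in capitals, is what joins miR-384-5p to the family, and because the rest of the strand sets the members apart. RefSeq on the GRCr8 assembly held 4 of the 5 measured members, written here 5′ to 3′ with bases 2 to 8 in capitals.
miR-384-5p: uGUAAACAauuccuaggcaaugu
miR-30a-5p: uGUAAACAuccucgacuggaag
miR-30e-5p: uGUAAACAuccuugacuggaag
miR-30c-5p: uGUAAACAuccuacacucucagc
Among 693 distinct mature names in that table, these 4 were the ones that carried this seed. It held no sequence for miR-30d-5p or miR-30b-5p, so the seed of these 2 names was not checked here. miR-30a-5p and miR-30e-5p differed by the single substitution C13U, counted from the 5′ end, and were identical at 21 of 22 positions. miR-30a-5p and miR-30c-5p were identical at 17 of 22 positions. miR-384-5p and miR-30a-5p were identical at 12 of 22 positions, and all 10 differences lay after position 8.

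miR-30c-5p is made from both of the hairpins Mir30c1 and Mir30c2, whose 5p arms are the same. The hairpins are shown with the mature arms in capitals, since the sequence of the 5p arm alone does not tell which of them a read came from. The deposited table still held 2 lines of miR-30c-5p, with medians of 365 and 159 RPM, which were summed here. How reads were divided between the lines was not tested.
Mir30c1: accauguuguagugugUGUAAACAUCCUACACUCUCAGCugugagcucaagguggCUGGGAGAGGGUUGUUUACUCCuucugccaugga
Mir30c2: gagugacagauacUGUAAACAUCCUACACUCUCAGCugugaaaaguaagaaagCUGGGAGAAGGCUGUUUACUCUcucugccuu
In GRCr8, Mir30c1 and Mir30e lie 2907 bases apart inside Nfyc, which encodes a subunit of a CCAAT-binding transcription factor. Mir30c2 lies 19671 bases from Mir30a on chromosome 9, Mir30d lies 3716 bases from Mir30b on chromosome 7, and Mir384 lies 32543 bases from Mir325 on chromosome X. The 3 pairs of miR-30 hairpins and the Mir384 and Mir325 pair are therefore 4 separate neighbourhoods.

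The values are reads scaled so that the mature names of a library sum to 1000000 (RPM), with precursor names scaled to the same total on their own. From the spacing of low values, the libraries held 363142 to 1370414 mature reads, with a median of 855218 in the amygdala, against 1031154 in the ventral striatum. Markers of both tissues were checked as sums over fixed lists. Single names were counted at a limma adjusted p under 0.05 over 48 libraries taken as independent. At that level 8.74% of all names were higher and 21.5% lower in the amygdala. The lists were not compared over the sets of libraries described below. The neuronal list (miR-124-3p, miR-128-3p and miR-9a-5p) summed to 26997 to 53190 RPM, with 1 of 3 names higher in the amygdala. The oligodendrocyte list had a median of 7089 RPM in the amygdala, against 10324 RPM in the ventral striatum, and 3 of 3 names were lower in the amygdala. The choroid plexus and ependyma list ran from 3672 to 145177 RPM in the amygdala and from 4571 to 12299 RPM in the ventral striatum, with 2 of 7 names higher in the amygdala. miR-122-5p, the defining microRNA of liver, did not exceed 3.96 RPM in any library.

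One split of the libraries bears on every value below and is described first. The quotient of mir-30c-1 to mir-30c-2, the precursor names of the 2 hairpins shown above, fell into a low range of 1.69 to 1.99 in 24 libraries and a high range of 2.58 to 3.01 in the other 24. No library lay between. Of the 6 libraries of each treatment group, 4 were low and 2 were high in every amygdala group, while 2 were low and 4 were high in every ventral striatum group. Consecutive library numbers pair a ventral striatum with an amygdala library, and the low or high quotients of the 2 libraries sorted the pairs into classes. Each class was then cut by region, which gave 6 sets of 8. A set thus lies in a single region by construction, and it held 1 library from each combination of treatment and gender. The study's methods state that libraries were multiplexed in 6 sets of 8. Which library was in which set, or whether a set held both regions, is not given in the sources used here. The sets described here are read from the data. Among the 574 names above 0 in every library with a mean of at least 10 RPM, the precursors let-7f-1 and mir-3596d were also higher in the high-quotient libraries of both regions without overlap. For let-7f-1, which gives the same split within each region, the high-quotient amygdala libraries lay at 6880 to 7793 RPM and the low-quotient ones at 4379 to 5511 RPM. The 8 high-quotient amygdala libraries were also the shallowest, with 363142 to 622114 mature reads.

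**Figure D1:**
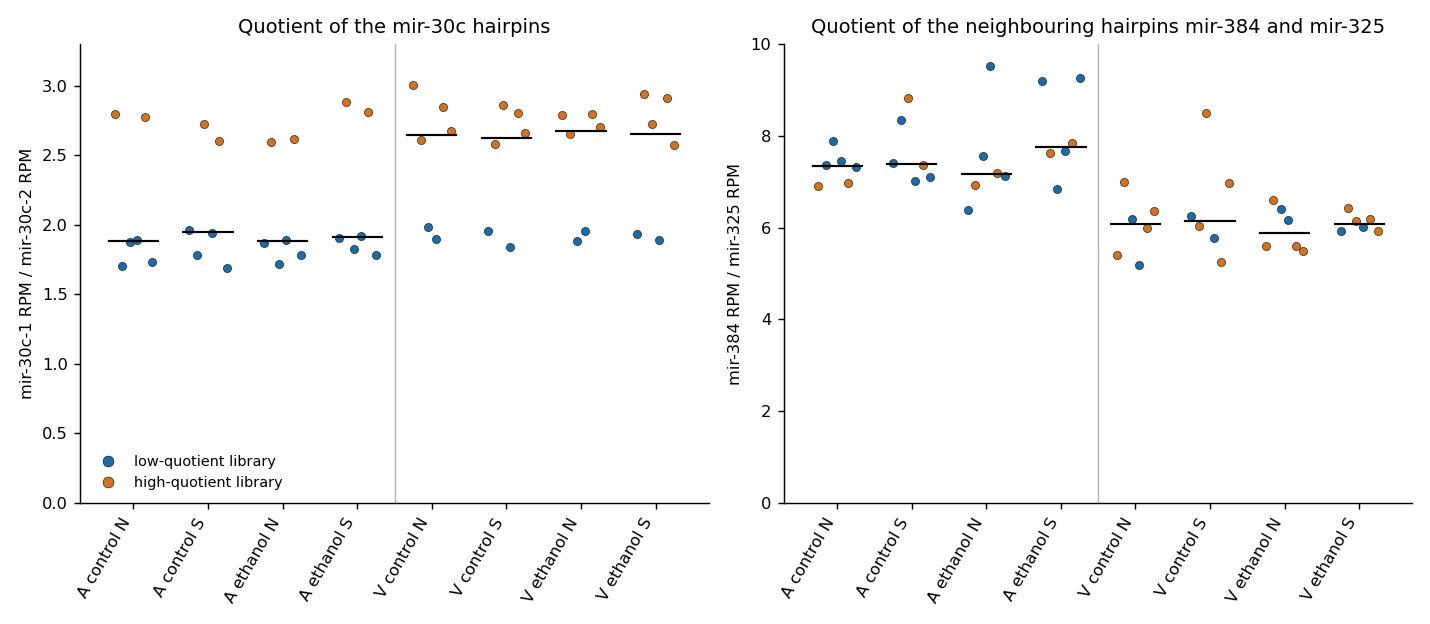
Each point is 1 library, placed by region (A amygdala, V ventral striatum), prenatal treatment and housing (N non-enriched, S enriched), and the line is the median of 6 libraries. The left axis is the quotient of mir-30c-1 RPM to mir-30c-2 RPM, which leaves a gap between 1.99 and 2.58 in every group; the right axis is the quotient of mir-384 RPM to mir-325 RPM, whose medians are higher in the amygdala.

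The left panel of the plot of quotients shows the split in every group. Pooled over all libraries, the mir-30c-1 to mir-30c-2 quotient had a median of 1.90 in the amygdala, against 2.66 in the ventral striatum, a mean log2 difference of -0.23 with p = 0.00706 (permutation test with 100000 resamples, two-sided, 24 libraries per region; adjusted p = 0.0118 over 5 quotients). Within the low-quotient libraries the medians were 1.85 and 1.92, and within the high-quotient libraries they were 2.75 and 2.76. Since the 2 sides were read from this quotient, their closeness within a side follows in part from that choice, and for this quotient region and set cannot be told apart. Over 48 libraries the log2 levels of the 2 precursor names correlated with r = -0.06 as deviations from the region mean and with r = 0.95 as deviations from the mean of the set of 8, again with sets read in part from these names. These points share library, depth and scaling.

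The 5 members were abundant and kept a fixed order. miR-30a-5p ranked 4 of 612 mature names by mean RPM, miR-30d-5p 14, miR-384-5p 51, miR-30e-5p 64 and miR-30c-5p 104. The mature strands are 22 or 23 bases long, so RPM levels of different members are close to a level per length.

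miR-30a-5p, the most abundant member, lay at 32476 to 48757 RPM (median 41243) in the 24 amygdala libraries and at 31296 to 56573 RPM (median 41907) in the 24 ventral striatum libraries. miR-30d-5p lay at 10469 to 18778 RPM (median 14747) in the amygdala, against 11359 to 21129 RPM (median 15092) in the ventral striatum. The 2 regions overlapped over most of the range of both members. miR-384-5p lay at 2075 to 3149 RPM (median 2680) in the amygdala and at 2129 to 2799 RPM (median 2342) in the ventral striatum. miR-30e-5p lay at 1289 to 1887 RPM (median 1694) and at 1179 to 2264 RPM (median 1616), respectively. The amygdala values of miR-384-5p sat higher, whereas those of miR-30e-5p fell inside the wider range of the ventral striatum. miR-30c-5p, the lowest member, lay at 409 to 593 RPM (median 507) in the amygdala and at 457 to 1205 RPM (median 583) in the ventral striatum, on 161 to 1067 reads per library.

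Within a library, each member exceeded the next in the order miR-30a-5p, miR-30d-5p, miR-384-5p, miR-30e-5p, miR-30c-5p in 48 of 48 libraries. The median quotients of neighbours in that order were 2.71, 6.07, 1.54 and 3.08. The closest pair was miR-384-5p and miR-30e-5p, whose quotient fell to 1.04 in 1 library and whose ranges over all libraries overlapped (2075 RPM at the lowest for miR-384-5p and 2264 RPM at the highest for miR-30e-5p). The ranges of miR-30e-5p and miR-30c-5p met as well, at 1179 and 1205 RPM, through the highest library of miR-30c-5p.

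The summed seed pool, that is the 5 members together, made up 4.78 to 8.29% of mature RPM (median 6.11%). In this pool miR-30d-5p was counted by its family name, as its sequence was not at hand. miR-30a-5p supplied a median of 67.5% of this pool, miR-30d-5p 24.9%, miR-384-5p 4.06%, miR-30e-5p 2.64% and miR-30c-5p 0.898%. These are shares of mature names and leave out miR-30b-5p. Mature names held a median of 18.7% of the reads on mir-30e and 9.81% on the mir-30c hairpins, against 98.1% on mir-384. The shares thus depend on which names are counted. The pool had a median of 6.16% of mature RPM in the amygdala, against 6.11% in the ventral striatum, and the group medians ran from 5.96% in the enriched control ventral striatum to 6.40% in the enriched ethanol-exposed ventral striatum. miR-384-5p held a median of 4.49% of the pool in the amygdala, against 3.72% in the ventral striatum.

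**Figure D2:**
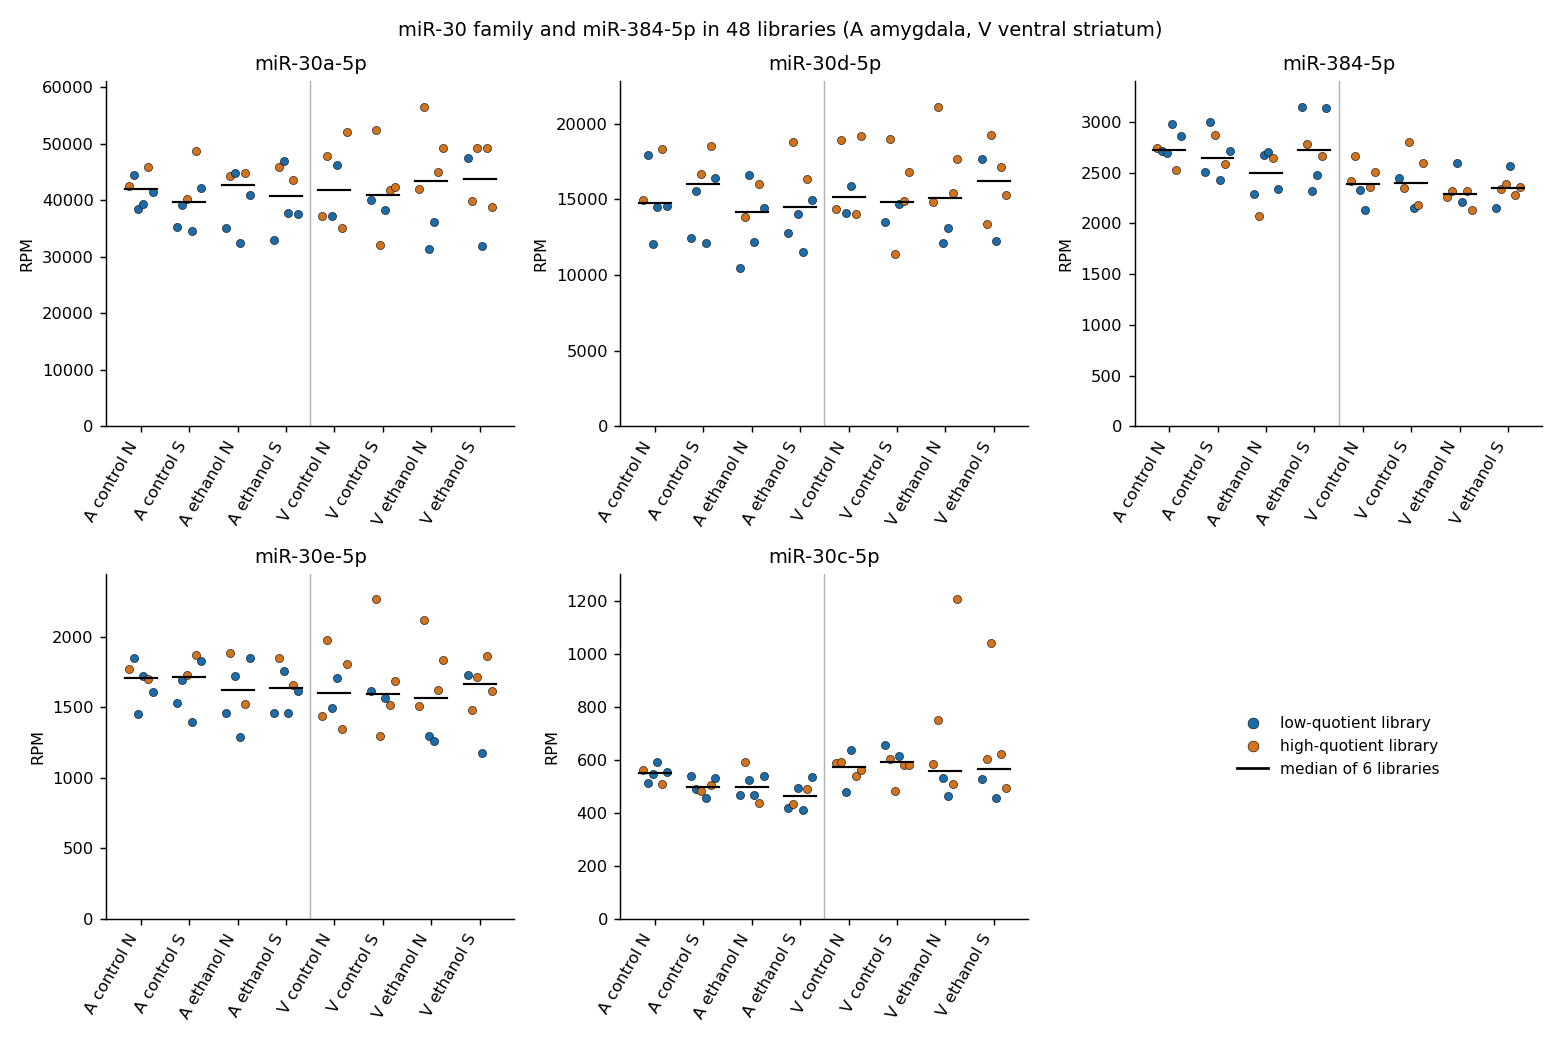
Each panel gives RPM of 1 member, each point is 1 library and the line is the median of the 6 libraries of a group (A amygdala, V ventral striatum; control or ethanol-exposed; N non-enriched, S enriched), with the color giving the side of the mir-30c-1 to mir-30c-2 quotient. miR-384-5p sits higher in the amygdala and miR-30c-5p lower, and 2 ventral striatum libraries stand at 1205 and 1041 RPM of miR-30c-5p.

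The plot of members by group shows 3 features beside the order. miR-384-5p had the narrowest spread, with a coefficient of variation of 10.7% over all libraries. miR-30a-5p, miR-30d-5p and miR-30e-5p had coefficients of 14.3, 16.4 and 13.7%, and miR-30c-5p one of 24.6%, with 10.04% in the amygdala, against 28.2% in the ventral striatum. The high-quotient libraries sat higher than the low-quotient ones for miR-30a-5p (by 0.20 on the log2 scale in each region), miR-30d-5p (by 0.27 in the amygdala, against 0.20 in the ventral striatum) and miR-30e-5p (by 0.13 and 0.19). For miR-384-5p the same differences were -0.04 and 0.04, and for miR-30c-5p -0.01 and 0.21. Over the 574 names described above, these differences ran from -0.48 to 0.32 in the amygdala and from -0.28 to 0.40 in the ventral striatum between percentiles 5 and 95, and the members lay inside both ranges.

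The order of the members depended on which names were counted. On the precursor scale, where the precursor names of a library share 1 total, mir-30a had a mean of 51016 RPM, mir-30d 22959, mir-30e 18138, mir-30c-1 3900, mir-384 2576 and mir-30c-2 1726 RPM. The reads placed on a hairpin were counted under its annotated mature names to very different extents. For mir-384 this share was 97.5 to 98.6% (median 98.1%), and for its neighbour mir-325 the median was 99.5%. For mir-30a the median was 71.7%, and for mir-30d 57.4%. For mir-30e it was 18.7%, with a highest library of 22.5%, and for the 2 mir-30c hairpins together 9.81%. The mature names of miR-30e and miR-30c therefore stood for less than 25% of the reads on their hairpins, so their RPM beside that of miR-384-5p depends on which names are counted.

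**Figure D3:**
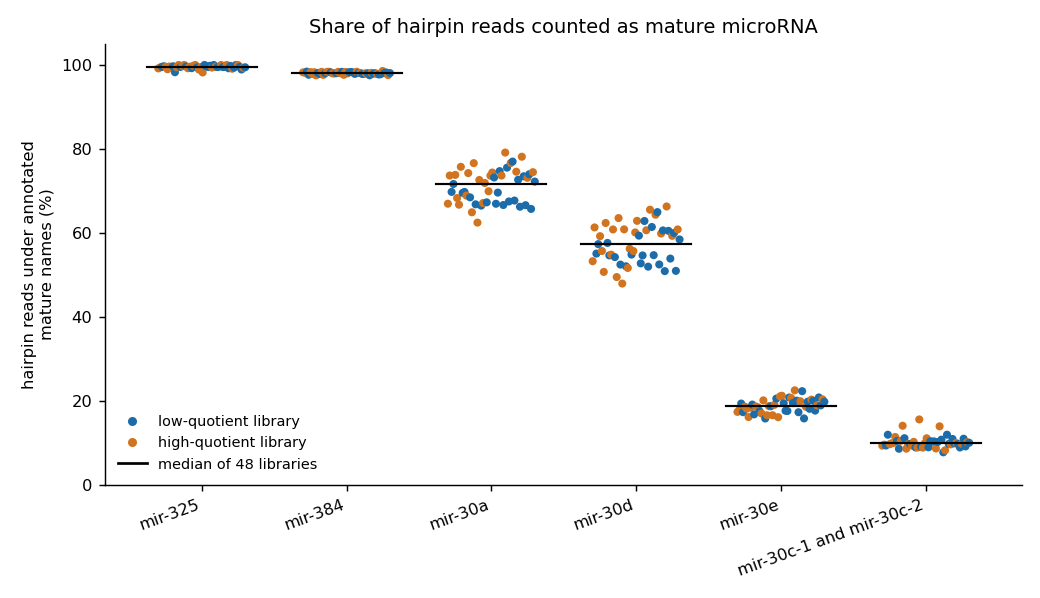
The vertical axis is the percent of reads on a hairpin that were counted under its annotated mature names; each point is 1 of 48 libraries, the line is the median, and the color gives the side of the mir-30c-1 to mir-30c-2 quotient. The medians step from 99.5% for mir-325 and 98.1% for mir-384 through 71.7% for mir-30a and 57.4% for mir-30d to 18.7% for mir-30e and 9.81% for the mir-30c hairpins.

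The plot of hairpin shares shows the 6 shares in this order, which held within each of the 48 libraries and so on both sides of the quotient. Among 77 hairpins with a mean of at least 1000 RPM and matching arm names, the median was 71.7%, the quartiles were 7.58 and 97.8%, and 25 hairpins lay under 25%. Arms were matched by the hairpin's own name, so numbered hairpins lost any arm named without the number, such as mir-181a-2 at 0%. There mir-30c-1 and mir-30c-2 stood at 1.10 and 2.51%, without miR-30c-5p. These background shares are thus in part too low, and how common low shares are cannot be read from them. Which reads on these hairpins fell outside the mature names was not tested, as the table gives no read ends.

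The arms also differed. The 5p arm exceeded the 3p arm by a median of 158-fold for miR-30d, 63.7-fold for miR-30a and 5.90-fold for miR-384. For miR-30e the 3p arm was the more abundant name, with a 5p to 3p quotient of 0.722 at the median and 1.11 at the highest. Mature names held a median of 18.7% of the reads on mir-30e, against 98.1% on mir-384. The miR-30e quotient thus compares counted names only, and from which arm the uncounted reads came was not tested. The arms of miR-30c cannot be set against one another in this way, since the 5p arm is shared and each 3p arm is not.

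Between the regions, miR-384-5p was higher and miR-30c-5p lower in the amygdala when the 48 libraries were taken as independent, and the other 3 members did not pass the test. Neither call held when the 6 sets of 8 were the unit. Differences are amygdala minus ventral striatum in log2(RPM + 1), from limma with Benjamini-Hochberg adjustment over 915 names, and a name was called at an adjusted p under 0.05. Of the 5 members 2 were called, 1 in each direction, where 30.3% of all names were called (8.74% higher and 21.5% lower in the amygdala). With 5 members, a count of 2 is near what that share gives.

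Since the sets of 8 were cut by region, a difference between regions is also one between 3 sets and 3 other sets. P-values over libraries are too small where the libraries of a set deviate together. The set means of miR-384-5p were 2608 to 2718 RPM in the amygdala, against 2322 to 2410 RPM in the ventral striatum. Those of miR-30c-5p were 487 to 523 RPM, against 545 to 728 RPM. In both members the 3 sets of a region lay apart from the 3 of the other, as did those of 31.9% of all names, whereas the set means of miR-30a-5p, miR-30d-5p and miR-30e-5p overlapped. Such a division has an exact permutation p of 0.1, the smallest that 3 sets against 3 allow. In limma on the 6 set means, miR-384-5p had an adjusted p of 0.0621 and miR-30c-5p one of 0.213, where 7.54% of all names were called. With the set as a random block over the 48 libraries, miR-384-5p was called (adjusted p = 0.0126) and miR-30c-5p was not (adjusted p = 0.0698), with 18.6% of all names called, and that fit still counts libraries rather than sets in its degrees of freedom. The values over 48 libraries that follow are to be read beside these.

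miR-384-5p was higher in the amygdala by 0.16 (SE 0.04, limma adjusted p = 0.00082), with means of 2659 ± 267 RPM and 2367 ± 179 RPM (SD, n = 24 each), a difference of 12.3%. The direction was the same in each treatment group, with 14.5% in non-enriched control, 10.9% in enriched control, 6.50% in non-enriched ethanol-exposed and 17.4% in enriched ethanol-exposed libraries. In 20 of 24 pairs of consecutively numbered libraries the amygdala library was the higher. With the side of the quotient as a term the difference was 0.16 (adjusted p = 0.0016), and it was 0.21 within the low-quotient and 0.12 within the high-quotient libraries.

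Over the 48 libraries the other products of the hairpin differed in the same direction. The precursor name mir-384 was higher in the amygdala by 0.18 (adjusted p = 0.00024) and by 0.18 with the side as a term (adjusted p = 0.00082). miR-384-3p was higher by 0.21 (adjusted p = 0.0113), and by 0.15 with the side as a term, where the call was lost (adjusted p = 0.0528). In limma on the 6 set means, mir-384 had an adjusted p of 0.0475 and miR-384-3p one of 0.278.

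Mir325, the annotated microRNA gene next to Mir384, differed in the other direction over the 48 libraries. mir-325 was lower in the amygdala by 0.13 on the log2 scale (adjusted p = 0.0027), miR-325-5p was lower with a difference of -0.20 (adjusted p = 0.00256) and miR-325-3p with one of -0.10 (adjusted p = 0.0286). All 3 calls remained with the side as a term, and none did over the 6 set means (adjusted p from 0.114 to 0.198). The mir-384 to mir-325 quotient had a median of 7.39 in the amygdala, against 6.10 in the ventral striatum. Its log2 difference of 0.31 had p = 1e-05 (permutation test, two-sided, 24 libraries per region), the smallest value that 100000 resamples can give, both pooled and with libraries permuted within the sides. Within the low-quotient libraries the log2 difference was 0.36, and within the high-quotient ones 0.27, although single libraries overlapped. The set means of the quotient were 7.46 to 7.82 in the amygdala, against 5.99 to 6.32 in the ventral striatum, with an exact permutation p of 0.1 over the sets.

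miR-30c-5p was lower in the amygdala, with a difference of -0.25 (SE 0.08, limma adjusted p = 0.016) and means of 504 ± 51 RPM against 612 ± 173 RPM (SD, n = 24 each). The difference was -3.52% in non-enriched control, -14.6% in enriched control, -25.1% in non-enriched ethanol-exposed and -25.6% in enriched ethanol-exposed libraries. Only 5 of 24 consecutively numbered pairs had the amygdala library higher. With the side of the quotient as a term the difference was -0.21 (adjusted p = 0.046), and within the low-quotient and high-quotient libraries it was -0.10 (adjusted p = 0.4) and -0.32 (adjusted p = 0.193). The call was lost under median-ratio rescaling (-0.18, adjusted p = 0.0746) and with depth as a covariate (-0.23, adjusted p = 0.0718).

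A pair of ventral striatum libraries carried part of this difference. Replicate M3 of the non-enriched ethanol-exposed group held 1205 RPM and replicate F3 of the enriched ethanol-exposed group 1041 RPM, while the other 22 lay at 457 to 748 RPM. Both belonged to the same set of 8, whose mean of 728 RPM was the highest of the 6 sets. Without these 2 libraries, chosen after their values were seen, miR-30c-5p was lower in the amygdala with a difference of -0.16 (SE 0.05, adjusted p = 0.0119). Both deposited lines of miR-30c-5p were raised in them, to 855 and 350 RPM in the first library and to 757 and 284 RPM in the second, against medians of 421 and 155 RPM over the ventral striatum. The share of mir-30c hairpin reads under mature names was 15.5 and 14.01% there. Their sums over the neuronal, oligodendrocyte and choroid plexus lists lay within the range of the other ventral striatum libraries.

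The mir-30c hairpins held far more reads than the mature name and gave the same direction. mir-30c-1 was lower in the amygdala by 0.26 on the log2 scale (adjusted p = 0.00015), and mir-30c-2 differed by -0.04 (adjusted p = 0.746). With the side of the quotient as a term these became -0.19 (adjusted p = 0.00034) and -0.15 (adjusted p = 0.00696), so that both passed, although the side was read from these same 2 names. Over the set means neither passed (adjusted p = 0.167 and 0.92), and the set means of both names overlapped between the regions. The 2 precursor names summed to a median of 5155 RPM in the amygdala, against 5938 RPM in the ventral striatum. Within the low-quotient libraries the medians of this sum were 5155 and 5573 RPM, and within the high-quotient ones 5190 and 6195 RPM.

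miR-30a-5p, miR-30d-5p and miR-30e-5p differed between the regions by -0.05 (95% CI -0.19 to 0.09), -0.08 (-0.23 to 0.08) and 0.04 (-0.10 to 0.17), respectively, on the log2 scale. With the side as a term the first 2 of these became 0.02 and 0.00, that is, the sign of both turned. Under median-ratio rescaling the 3 differences were 0.02, -0.01 and 0.11. Of the 12 other products of the member hairpins that were measured, 5 were called, 2 higher and 3 lower in the amygdala, where 30.3% of all names were called. A precursor name and the mature names of its hairpin share reads, so these calls are not separate, and the count is not far from that share. miR-30d-3p was lower with a difference of -0.23 (adjusted p = 0.0166) and mir-30e with one of -0.12 (adjusted p = 0.0426), and both remained called with the side as a term, but not over the 6 set means (adjusted p = 0.21 and 0.411). For miR-30d and miR-30e the 5p member thus gave no call while another product of its hairpin did. As in any bulk tissue, fewer cells of a type and less RNA per cell cannot be told apart, and the lower oligodendrocyte and higher choroid plexus sums of the amygdala moved with the region. Their part in the regional differences was not tested.

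**Figure D4:**
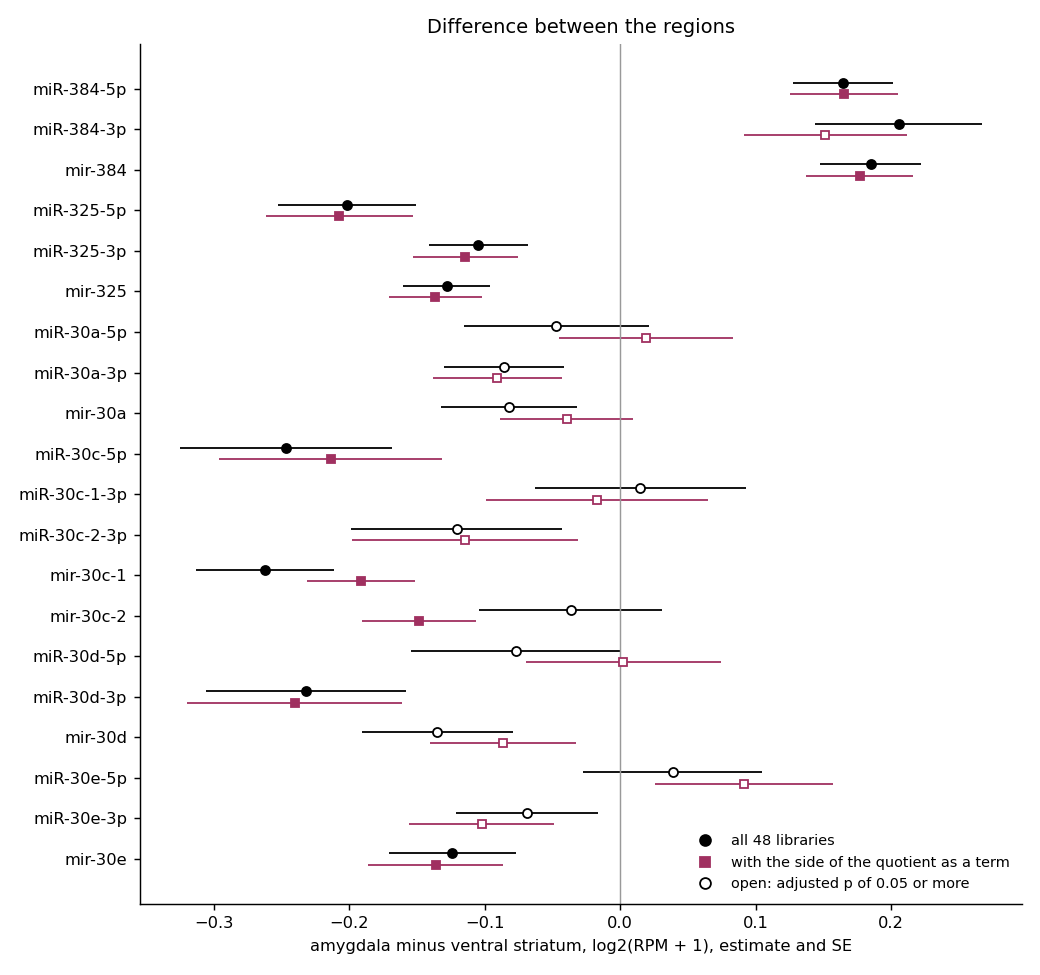
The horizontal axis is amygdala minus ventral striatum in log2(RPM + 1), with points as estimates and bars as SE from limma, for all 48 libraries (circles) and with the side of the mir-30c-1 to mir-30c-2 quotient as a term (squares); filled symbols have an adjusted p under 0.05. The mir-384 products lie right of 0 and the mir-325 products left of 0 in both fits, and mir-30c-2 moves from -0.04 to -0.15 when the term is added.

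As the plot of regional differences shows, products of 1 hairpin did not all give the same estimate. The estimates for the 5p members of miR-30a, miR-30d and miR-30e had SE bars that reached across or close to 0 in both fits. Those for the mir-30c products lay below 0 in both fits, except miR-30c-1-3p, which was at 0.01 without the term.

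Treatment was compared 4 ways in each region, and no member passed. Over the 5 members and 8 comparisons, the log2 differences ran from -0.17 to 0.17 with a median size of 0.05, and the smallest limma p was 0.0577 before adjustment and 0.842 after. At an unadjusted p under 0.05, 0 of 5 members were called in each comparison. Of all names, 4.51% were called at that level in A N(EvC), 3.85% in A S(EvC), 2.64% in A C(SvN) and 2.64% in A E(SvN). In the ventral striatum the shares were 2.04% in V N(EvC), 2.25% in V S(EvC), 3.86% in V C(SvN) and 1.82% in V E(SvN). No name of the 910 tested in the amygdala or the 933 in the ventral striatum had an adjusted p under 0.05 in these comparisons. The 95% intervals of the members, with 6 libraries a group, reached as far as -0.52 and 0.60.

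miR-384-5p and miR-30c-5p are described in full, since the study listed both in the amygdala at uncorrected p-values. Its listing drew on these same libraries together with microarrays of the same pooled RNA. The arrays were not analysed here, so the values below bear on the sequencing alone. That choice is not independent of the values given here.

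In the amygdala, miR-384-5p lay at 2522 to 2982 RPM (median 2723, n = 6) in non-enriched control and at 2423 to 2997 RPM (median 2647) in enriched control libraries. In non-enriched ethanol-exposed libraries it lay at 2075 to 2704 RPM (median 2492), and in enriched ethanol-exposed libraries at 2314 to 3149 RPM (median 2721). The non-enriched ethanol-exposed group had the lowest median, but its range overlapped each of the others. In A N(EvC), ethanol-exposed libraries averaged 2454 ± 257 RPM and control libraries 2749 ± 157 RPM (SD, n = 6 each).

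That difference was -0.17 on the log2 scale (SE 0.08, limma p = 0.0577, adjusted p = 0.842), and the exact permutation test of the 12 libraries gave p = 0.0368, two-sided. It was -0.22 in females and -0.12 in males. In A E(SvN) the difference was 0.16 (SE 0.08, limma p = 0.0649, adjusted p = 1, exact permutation p = 0.119), and it was 0.22 in females and 0.10 in males. In A S(EvC) and A C(SvN) the differences were 0.03 and -0.04. A N(EvC) and A E(SvN) share the non-enriched ethanol-exposed libraries, so they are not separate evidence. The interaction, the test of whether the ethanol difference changed with housing, was 0.20 (SE 0.12, 95% CI -0.05 to 0.45, limma adjusted p = 1). With the set of 8 libraries as a term the adjusted p was 0.694 for A N(EvC) and 0.974 for A E(SvN). Median-ratio rescaling, which moved the median of all names in A N(EvC) by 0.08, gave -0.06 for A N(EvC), 0.10 for A E(SvN) and 0.13 for the interaction.

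Single libraries decided on which side of an unadjusted p of 0.05 these values fell. A N(EvC) passed it without replicate F3 of the non-enriched ethanol-exposed group (a difference of -0.22), without replicate M2 of the non-enriched control group (-0.20), or without replicate F1, F3 or M3 of the enriched ethanol-exposed group, which enter that comparison through the spread alone. A E(SvN) passed it without replicate F3 of the non-enriched ethanol-exposed group (0.21), or without replicate F3 (0.22) or M1 (0.20) of the enriched ethanol-exposed group. The interaction passed it without F3 of either ethanol-exposed group (0.25 and 0.26).

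In the ventral striatum, miR-384-5p had medians of 2389, 2396, 2287 and 2346 RPM in non-enriched control, enriched control, non-enriched ethanol-exposed and enriched ethanol-exposed libraries. All 4 differences lay between -0.06 and 0.03 on the log2 scale, with standard errors of 0.06. Whether the regions differed in the comparison was tested directly, and the difference was -0.11 for N(EvC) (95% CI -0.32 to 0.10) and 0.14 for E(SvN) (95% CI -0.08 to 0.35), each with a limma adjusted p of 1. Under median-ratio rescaling they were -0.01 and 0.04. For these 2 tests 3.61 and 2.19% of all 915 names had an unadjusted p under 0.05, and 0 of 5 members did.

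miR-30c-5p in the amygdala lay at 510 to 593 RPM (median 550) in non-enriched control, 458 to 537 RPM (median 497) in enriched control, 438 to 592 RPM (median 496) in non-enriched ethanol-exposed and 409 to 537 RPM (median 462) in enriched ethanol-exposed libraries. The control non-enriched group was the highest and the ethanol-exposed enriched group the lowest, and neighbouring groups overlapped. The differences were -0.12 in A N(EvC), -0.11 in A S(EvC), -0.13 in A C(SvN) and -0.12 in A E(SvN), each with an SE of 0.08 and limma adjusted p-values from 0.842 to 1. Under median-ratio rescaling the difference in A N(EvC) was -0.01 and that in A E(SvN) -0.19. The exact permutation test gave p = 0.0303 for A C(SvN), two-sided. Of the 40 exact tests over the members, this and A N(EvC) of miR-384-5p were the 2 under 0.05, and in none did the groups separate. A count of 2 in 40 is near what a threshold of 0.05 gives by chance. Exact tests were not run over all names, so no share stands beside that count. The interaction was 0.00 (SE 0.11, limma adjusted p = 1).

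In the ventral striatum, the medians of miR-30c-5p were 574, 592, 559 and 565 RPM in the same order of groups, and the highest libraries were 636, 657, 1205 and 1041 RPM. The differences ran from -0.09 in V E(SvN) to 0.17 in V N(EvC), with standard errors of 0.20. Without the 2 libraries above, V N(EvC) was -0.04 and V S(EvC) -0.11, so the sign of both rested on them.

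**Figure D5:**
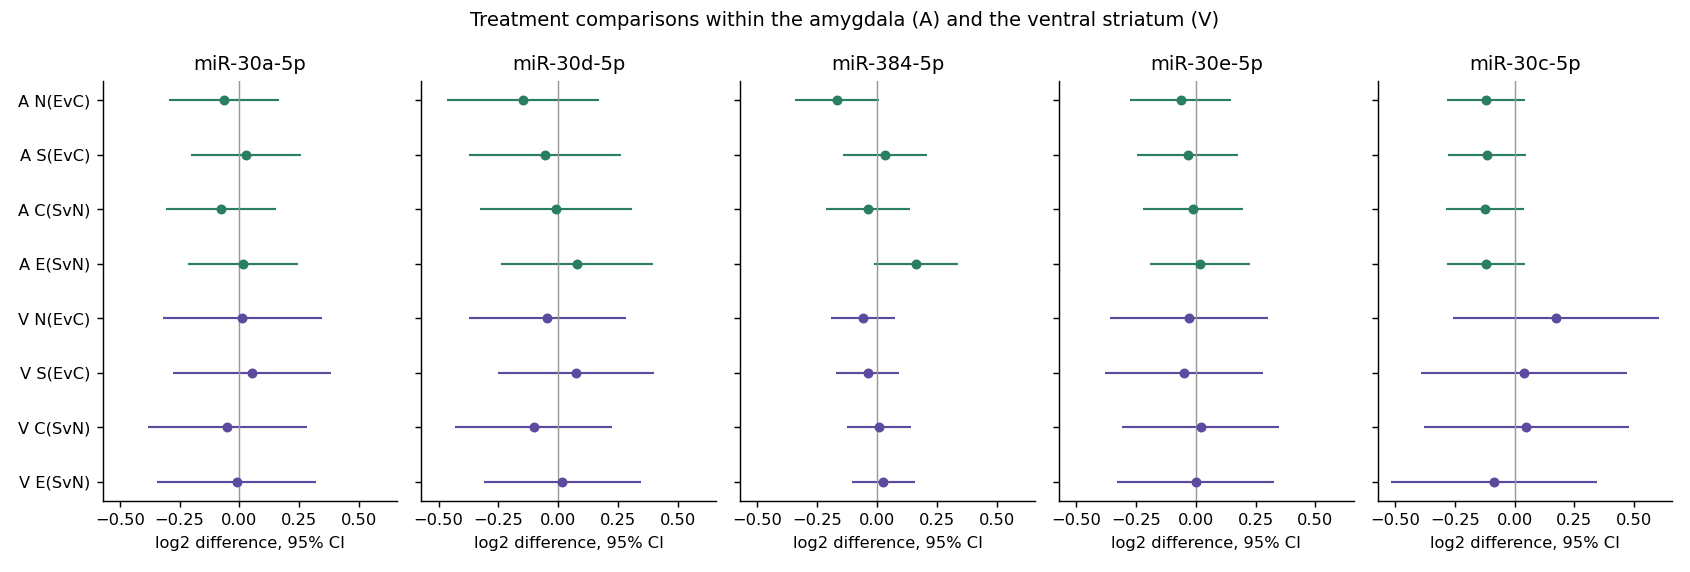
Each panel gives 1 member, the horizontal axis is the log2 difference in log2(RPM + 1) from limma, and bars are 95% confidence intervals; rows are the 4 comparisons in the amygdala (A) and the 4 in the ventral striatum (V). The interval covers 0 in all 40 rows, and the widest intervals are those of miR-30c-5p in the ventral striatum.

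The plot of treatment comparisons also holds the other 3 members. Over the 8 comparisons miR-30a-5p ran from -0.08 to 0.05, miR-30d-5p from -0.15 to 0.08 and miR-30e-5p from -0.06 to 0.02, and all intervals covered 0. In A N(EvC) all 5 members had a negative difference, from -0.17 to -0.06, where the median of all names was -0.08. miR-30a-5p (-0.07) and miR-30e-5p (-0.06) were nearest that median, while miR-30c-5p (-0.12), miR-30d-5p (-0.15) and miR-384-5p (-0.17) lay further below 0. In A E(SvN) 4 of 5 were positive, from -0.12 to 0.16, and the median of all names was 0.04. Of the 12 hairpin products, 0 had an unadjusted p under 0.05 in any of the 8 comparisons. With the set of 8 as a term, 2 did in A N(EvC), mir-30c-1 (-0.17) and mir-30e (-0.13), and 1 in V C(SvN), miR-384-3p (0.19). Their limma adjusted p-values were 0.584, 0.694 and 0.811. In that fit 63 of all 910 names had an unadjusted p under 0.05 in A N(EvC), and 56 of 933 in V C(SvN). The sets were read in part from mir-30c-1, and Mir30c1 and Mir30e lie in the same gene.

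The names of the neighbour Mir325 with an unadjusted limma p under 0.05 are given beside these values, a choice made after they were seen. miR-325-3p was at 281 ± 10 RPM in non-enriched control and 248 ± 32 RPM in non-enriched ethanol-exposed amygdala (SD, n = 6 each), a difference of -0.19 (exact permutation p = 0.0411, limma adjusted p = 0.842). In A C(SvN) its difference was -0.17 (exact permutation p = 0.00649, limma adjusted p = 1). The precursor mir-325 differed by -0.16 in A N(EvC) (limma adjusted p = 0.842). The interaction of miR-325-3p in the amygdala was 0.28 (limma adjusted p = 0.957). miR-325-5p had a difference of -0.24 in A S(EvC) (exact permutation p = 0.00433, limma adjusted p = 0.878). None passed the adjustment.

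Neither the interaction nor gender gave a call among the members. At an unadjusted p under 0.05, 0 of 5 members were called in the A interaction, the V interaction, A gender and V gender, against 3.85, 2.57, 4.18 and 2.89% of all names. Female minus male differences of the members ran from -0.03 to 0.05 in the amygdala and from 0.01 to 0.06 in the ventral striatum.

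The members also differed in how they varied together from library to library. Correlations here are of log2(RPM + 1) over 48 libraries that share depth and scaling, and are descriptions. As deviations from the region mean, miR-30a-5p correlated with miR-30d-5p at r = 0.87 and with miR-30e-5p at r = 0.89, and miR-30d-5p with miR-30e-5p at r = 0.82. As deviations from the mean of the set of 8, the values were 0.73, 0.80 and 0.65. These 3 members lie in 3 separate neighbourhoods of the genome. miR-30c-5p correlated with them at r = 0.40 to 0.49, and at 0.21 to 0.34 within the sets. miR-384-5p correlated with the same 3 members at r = -0.26 to 0.05, and at -0.45 to 0.00 within the sets. Within the sets the correlation was inverse with miR-30a-5p (-0.45) and miR-30e-5p (-0.31), and 0.00 with miR-30d-5p.

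Hairpin partners did not always go together. miR-30e-5p and mir-30e correlated at r = 0.00 as deviations from the region mean and at 0.58 within the sets, while miR-30e-5p and miR-30e-3p gave -0.55 and -0.26. miR-384-5p and mir-384 gave 0.98 on both scales, and miR-384-5p and miR-384-3p 0.49 and 0.61. miR-384-5p and the 2 arms of miR-325 correlated at 0.09 and 0.15.

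Among 296 other mature names with a mean of at least 10 RPM, those most like each member over the 48 libraries, by deviation from the region mean, were as follows. For miR-384-5p they were miR-434-3p (r = 0.79), miR-434-5p (0.79) and miR-3543 (0.78), and within the sets the values were 0.79, 0.83 and 0.78. For miR-30a-5p they were miR-24-3p (0.81), miR-23b-3p (0.78) and miR-151-5p (0.77). For miR-30d-5p they were miR-361-5p (0.91), miR-151-5p (0.88) and let-7g-5p (0.83). For miR-30e-5p they were miR-151-5p (0.84), miR-24-3p (0.79) and miR-361-5p (0.76), so miR-151-5p stood in the lists of 3 members. For miR-30c-5p they were miR-324-5p (0.64), miR-222-3p (0.64) and miR-328a-3p (0.63), the lowest values of the 5 members. Within the sets the values for miR-30a-5p, miR-30d-5p and miR-30e-5p dropped to between 0.50 and 0.78.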

How the data were processed

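Small RNA was sequenced from 48 pools of rat brain RNA (TruSeq Small RNA kit). According to the study's methods, the authors trimmed reads, aligned them with Bowtie in Partek Flow to the rat genome Rn5, counted them on miRBase names and scaled them. The deposited signal values sum to 1000000 per library over mature and, separately, over precursor names, and are called RPM here; counts were not used. Lines of one name were summed (1129 lines, 1063 names). The depth was read from the spacing of low values, of which 76.7 to 98.2% were whole multiples of a read within 0.05, and no count test was run.

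log2(RPM + 1) was fitted with limma 3.58.1 (R 4.3.3; trend, two-sided), on cell means of treatment and gender within each region, or of all 16 cells for the regions. Names above 0 in at least 6 libraries of a region (12 of 48) were kept, and p-values were Benjamini-Hochberg adjusted. Members in treatment comparisons were also tested by exact permutation of RPM. The fits were tried on simulated data with independent libraries and changes far larger than those reported here. That trial does not cover libraries that deviate together or small differences. The named genes were the members, their hairpin products, precursors within 50 kb with their arms, and the 3 mature names most correlated with each member. Of the members in treatment comparisons, miR-384-5p and miR-30c-5p are given in full and the others as ranges. The regions were also compared over the means of 6 sets of 8 libraries. The red blood cell, microglia, vascular and muscle lists had 0, 0, 1 and 0 names called between the regions. Members and lists were chosen with earlier results of these data known.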

Additional observations from a re-analysis of the deposited data

Results flagged for a closer look

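In the enriched ethanol-exposed ventral striatum, replicate F3 held 1041 RPM of miR-30c-5p, and its gap to the next library was 0.717 of the range of the 6 libraries. Of 40 groups of 6 examined for a library of this kind, it was the only one. Chance gives such a library in about 1 of 20 groups, so 1 in 40 is no more than chance gives. The group averaged 624 ± 214 RPM (SD, n = 6), and V S(EvC) of miR-30c-5p moved from 0.04 to -0.11 on the log2 scale without this library and replicate M3 of the non-enriched ethanol-exposed group.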

How the results depend on the processing

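The 2 regional calls were kept under changes of pseudocount, filter, log scale, names tested, moderation and library pairing, with the side as a term and without any single library, where the count stayed at 2 of 5 members. The count was 1 under median-ratio rescaling, with depth as a covariate and with the set of 8 as a random block, since miR-30c-5p was lost, and 0 over the means of the 6 sets, where all names called fell from 277 to 69 of 915 (243 at an unadjusted p under 0.05). The signs of members that gave no call turned for miR-30a-5p (0.022 under rescaling and 0.019 with the side as a term) and miR-30d-5p (0.0022 with the side). Rescaling also turned the A interaction of miR-30c-5p (-0.072) and A gender of miR-384-5p (0.031), and unlogged values turned A against V E(SvN) of miR-30c-5p (9.09 RPM). Without the 2 libraries highest in miR-30c-5p, V N(EvC) (-0.045) and V S(EvC) (-0.11) of miR-30c-5p and V E(SvN) (-0.0035) and the V interaction (-0.011) of miR-384-5p turned. The cause was not tested.

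Under rescaling, values of miR-384-5p and miR-30c-5p in A N(EvC) moved to -0.061 and -0.011 and those of miR-384-5p in A against V N(EvC) and E(SvN) to -0.0068 and 0.044.

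In A N(EvC) the count of members with an unadjusted p under 0.05 was 1 in a fit to the 12 libraries compared. Leaving out 1 library at a time, it ran from 0 to 1 in A N(EvC), from 0 to 1 in A E(SvN) and from 0 to 1 in the A interaction, with miR-384-5p as the member called. The same step turned signs of miR-30c-5p within these ranges: -0.25 to 0.11 in A against V E(SvN), -0.020 to 0.029 in A gender, -0.039 to 0.058 in the A interaction, -0.0011 to 0.11 in V C(SvN), -0.23 to 0.13 in V E(SvN), -0.045 to 0.30 in V N(EvC), -0.11 to 0.14 in V S(EvC), -0.020 to 0.16 in V gender and -0.28 to 0.083 in the V interaction. For miR-384-5p the ranges were -0.019 to 0.092 in A S(EvC), -0.043 to 0.013 in A gender, -0.036 to 0.035 in V C(SvN), -0.066 to 0.0036 in V S(EvC) and -0.0088 to 0.062 in the V interaction.

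Replicate numbers did not pair the libraries: same-numbered libraries of a gender correlated with a median r of -0.05 in the amygdala, against 0.03 in the ventral striatum, and 14 of 36 pairs in each were over 0.1. With the replicate number as a block, the regional count stayed at 2, with 0.16 for miR-384-5p and -0.25 for miR-30c-5p, and no other call changed. With the set of 8 libraries as a term, names with an unadjusted p under 0.05 went from 41 to 63 in A N(EvC), from 21 to 39 in V S(EvC), from 36 to 56 in V C(SvN) and from 27 to 45 in V gender, and in no comparison was an adjusted p under 0.05. Terms for side and set, the set as a random block, the set means and the omission of the 2 libraries were chosen after the values were seen. miR-30c-5p had the fewest reads of the 5 members, with 161 in its lowest library.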
